A study of Mus musculus with 2 samples.

Results

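The cluster of IL-1 receptor family genes on mouse chromosome 1 holds 6 genes in the order Il1r2, Il1r1, Il1rl2, Il1rl1, Il18r1 and Il18rap, and GATA3 binding over it was compared between 2 libraries of CD4+ T cells. The 6 genes were chosen by position, as the stretch chr1:40130001-40640000 of mm9, which is 510 kb long, and not by any measured value. Chromatin bound by GATA3 was immunoprecipitated and sequenced from cells of C57BL/6 mice, purified as naive cells without CD25 and with CD62L. One library is labelled TGF-β +IL-4, for which the protocol names TGF-β1 at 2 ng/ml and IL-4 at 10 ng/ml with anti-CD3 and anti-CD28 antibodies, both at 1 µg/ml. The second has NA as its treatment, and because both carry the same culture text, which covers TGF-β1 given with or without IL-4, the labels do not say whether its cells had TGF-β1 alone or no stimulation. It is named here by that label, the NA library. Each condition is 1 library, no input library was used here, and no age or number of mice is given. No difference between the conditions therefore has a replicate check, no p-value is given, and the intervals printed cover counting error only. Of 22963959 reads in the NA library, 6967 had their fragment centre in the cluster, and of 15561681 reads in the TGF-β +IL-4 library, 5290 did.

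The genes of this cluster encode receptors and a decoy of the IL-1 family of cytokines. Il1r1 encodes the signalling receptor for IL-1, Il1r2 a decoy receptor that binds IL-1 without signalling, and Il1rl2 the receptor for the IL-36 cytokines. Il1rl1 encodes ST2, the receptor for IL-33, which is known from T helper 2 cells, type 2 innate lymphoid cells, mast cells and a subset of regulatory T cells. Il18r1 and Il18rap encode the binding and the accessory chain of the IL-18 receptor, which is known from T helper 1 cells and natural killer cells. GATA3, the transcription factor that directs T helper 2 differentiation, binds DNA at sites with GATA at their core, and Il1rl1 is known as a gene that depends on it. The contrast between Il1rl1 and its next neighbour Il18r1 thus sets a receptor of type 2 cells beside a receptor of type 1 cells.

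The start sites of Il1rl1 and of the IL-18 receptor genes are shown because they differ in how many GATA3-type words they hold. The windows are RefSeq's for GRCm38.p6, from 250 bases before to 50 after each start, on the plus strand, and 10 windows were found for the 6 genes. They were searched for the GATA3-type words AGATAA as well as AGATAG on both strands, and likewise for TGATAA as well as TGATAG, and matches are in capitals.
Il1rl1, first start, GRCm38.p6 chr1:40429320-40429619: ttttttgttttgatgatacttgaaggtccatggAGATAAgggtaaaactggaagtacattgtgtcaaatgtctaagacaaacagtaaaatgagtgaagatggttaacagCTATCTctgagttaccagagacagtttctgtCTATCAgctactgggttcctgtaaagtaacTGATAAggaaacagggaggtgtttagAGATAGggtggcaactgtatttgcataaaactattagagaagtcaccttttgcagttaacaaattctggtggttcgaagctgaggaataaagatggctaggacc
Il1rl1, second start, GRCm38.p6 chr1:40439379-40439678: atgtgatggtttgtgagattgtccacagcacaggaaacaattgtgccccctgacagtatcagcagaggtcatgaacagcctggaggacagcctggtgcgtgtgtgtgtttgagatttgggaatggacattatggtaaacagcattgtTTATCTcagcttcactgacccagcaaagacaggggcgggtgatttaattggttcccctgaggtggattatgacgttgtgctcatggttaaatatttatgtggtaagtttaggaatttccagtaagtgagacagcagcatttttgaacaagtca
Il18r1, first start, GRCm38.p6 chr1:40465302-40465601: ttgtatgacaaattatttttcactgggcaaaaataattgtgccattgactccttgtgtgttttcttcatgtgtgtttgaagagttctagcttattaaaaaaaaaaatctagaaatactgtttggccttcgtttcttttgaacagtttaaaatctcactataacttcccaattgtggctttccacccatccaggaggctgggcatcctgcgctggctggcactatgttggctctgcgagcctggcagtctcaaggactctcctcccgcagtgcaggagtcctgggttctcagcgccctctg
Il18rap, GRCm38.p6 chr1:40515112-40515411: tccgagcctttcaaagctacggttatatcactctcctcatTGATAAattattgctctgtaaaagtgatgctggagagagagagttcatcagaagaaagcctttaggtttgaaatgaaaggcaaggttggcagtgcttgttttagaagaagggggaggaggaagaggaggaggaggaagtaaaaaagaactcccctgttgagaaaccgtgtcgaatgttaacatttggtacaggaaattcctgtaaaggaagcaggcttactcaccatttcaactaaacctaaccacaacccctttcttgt
The first start of Il1rl1 had 5 matches, the second, 10059 bp further on, had 1, Il18rap had 1 and Il18r1 had 0 in each of its 3 overlapping or neighbouring windows. Il1r2 had 1 match, and the windows of Il1r1 and Il1rl2 had 0. Of 32544 distinct promoter windows of this length in the RefSeq table, 29.6% held at least 1 match and 0.0553%, which is 18 windows, held at least 5. A match is a run of letters and not a bound site. These windows belong to GRCm38.p6 and the reads to mm9, positions were not converted, and the reads at the start sites themselves are not given.

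The cluster was rich in GATA3 sites compared with the genome. Peaks called in each library at equal depth and merged where they overlapped gave 39 sites in the cluster, named S1 to S39 in order of position. Of 4935 stretches of the same length that tile the genome, each with at least 1000 reads, the median held 10 sites, and 95.3% held fewer than 39. The density was 7.65 sites per 100 kb, against 2.78 per 100 kb of covered genome. Read density, as RPM (reads per 1000000 reads of the library) per kb, was 0.595 in the NA library and 0.667 in the TGF-β +IL-4 library, and the medians over the tiling stretches were 0.35 and 0.339. Of those stretches 77.1% and 86.1% had a lower read density, and its part in the number of sites was not tested. The ratio of RPM in the cluster, TGF-β +IL-4 over NA, was 1.12 (exact 95% interval 1.08 to 1.16). The median ratio of the stretches was 1.03, and 65.9% had a lower ratio than the cluster. Of the reads in the cluster, 14.2% fell in sites in the NA library (Wilson 95% interval 13.4% to 15.0%) and 20.3% in the TGF-β +IL-4 library (19.2% to 21.4%). Over the whole genome these shares were 8.57% and 12.7%.

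**Figure D1:**
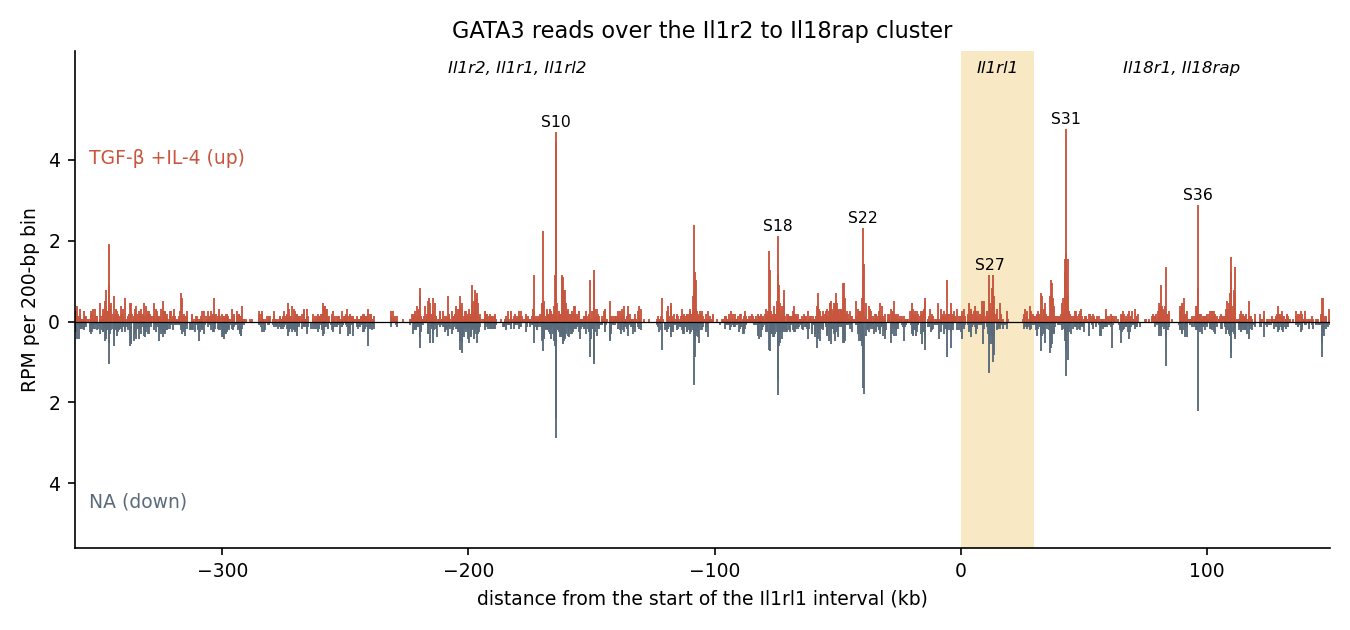
RPM in each 200-bp bin of the cluster (y axis) by distance from the start of the Il1rl1 interval in kb (x axis), with the TGF-β +IL-4 library drawn upwards and the NA library downwards. The shaded stretch is the 30 kb Il1rl1 interval, whose highest bins are 1.26 RPM with NA and 1.16 RPM with TGF-β +IL-4. The highest TGF-β +IL-4 bins are at S10 and S31, at 4.69 and 4.76 RPM.

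The cluster was parted by the position given for Il1rl1 in mm9, near 40.49 to 40.52 Mb. By that position, the 360 kb before this interval hold Il1r2, Il1r1 and Il1rl2. The 30 kb interval stands for Il1rl1, and the 120 kb after it hold Il18r1 and Il18rap. The bounds are rough, and whether the interval holds both start sites of Il1rl1 was not checked. Gene order was taken from a RefSeq table of GRCm38.p6, which also lists Gm35741 between Il1r2 and Il1r1, Gm17970 between Il1rl2 and Il1rl1, and Gm35801 and Slc9a4 after Il18rap. No mm9 annotation was used here, so a site is placed by zone and by its mm9 position, not by exon or intron.

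The zone with Il1r2, Il1r1 and Il1rl2 held 26 sites, among them the strongest of the cluster. That was S10, at chr1:40325451-40325730, with 117 reads (5.09 RPM) in the NA library and 133 reads (8.55 RPM) in the TGF-β +IL-4 library. Its ratio of RPM, TGF-β +IL-4 over NA, was 1.68 (exact 95% interval 1.30 to 2.17). S10 was a single sharp summit in both libraries, 4.01 fragments per 1000000 reads high in one and 6.88 in the other, and its mean RPM was above that of 96.3% of all 65915 sites of the genome.

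Strong sites of other kinds stood in this zone, broad ones with nearly equal reads and narrower ones with more reads in the TGF-β +IL-4 library. S22, at chr1:40450151-40450750, had 4.40 and 4.95 RPM in the order NA and TGF-β +IL-4, with a ratio of 1.13 (0.825 to 1.53). S18, at chr1:40415581-40416070, had 3.88 and 4.24 RPM and a ratio of 1.09 (0.784 to 1.52). Both intervals hold 1, so no difference was detectable there at this depth. S22 had 2 summits, and the higher one lay 200 bp after the centre in the NA library and 200 bp before it in the TGF-β +IL-4 library. In order of position the summits had 26 and 35 fragments with NA, and 26 and 20 with TGF-β +IL-4. Whether their heights differ beyond counting error was not tested. In the first 100 bp of S22 there were 7 and 15 reads, a ratio of 3.16 (1.21 to 9.17), and in the last 100 bp 28 and 13, a ratio of 0.685 (0.326 to 1.37). These steps were picked out after their values were seen.

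Other sites of the same zone had ratios over 1 of various size. S15, at chr1:40381361-40381650, had 1.79 and 3.15 RPM, a ratio of 1.76 (1.14 to 2.74). S17, at chr1:40412241-40412530, had 1.18 and 2.70 RPM, a ratio of 2.30 (1.38 to 3.87). S1, the first site of the cluster, at chr1:40143861-40144140, had 1.39 and 2.57 RPM, a ratio of 1.84 (1.13 to 3.03). Around S10, in a run of 4 sites from S8 to S11 that spans 11.7 kb, the other 3 sites all had at least 2.21 times the RPM in the TGF-β +IL-4 library. Like S17, those 3 were called in the TGF-β +IL-4 library alone, and a choice of that kind by itself favours ratios over 1. The last of these, S11 at chr1:40327981-40328090, had 2 reads against 16, a ratio of 11.8 (2.78 to 106) that rests on few reads. S9, at chr1:40320411-40320590, had 17 against 34, a ratio of 2.95 (1.60 to 5.63). The largest stretch without a site, 62.4 kb between S3 and S4, also lay in this zone.

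**Figure D2:**
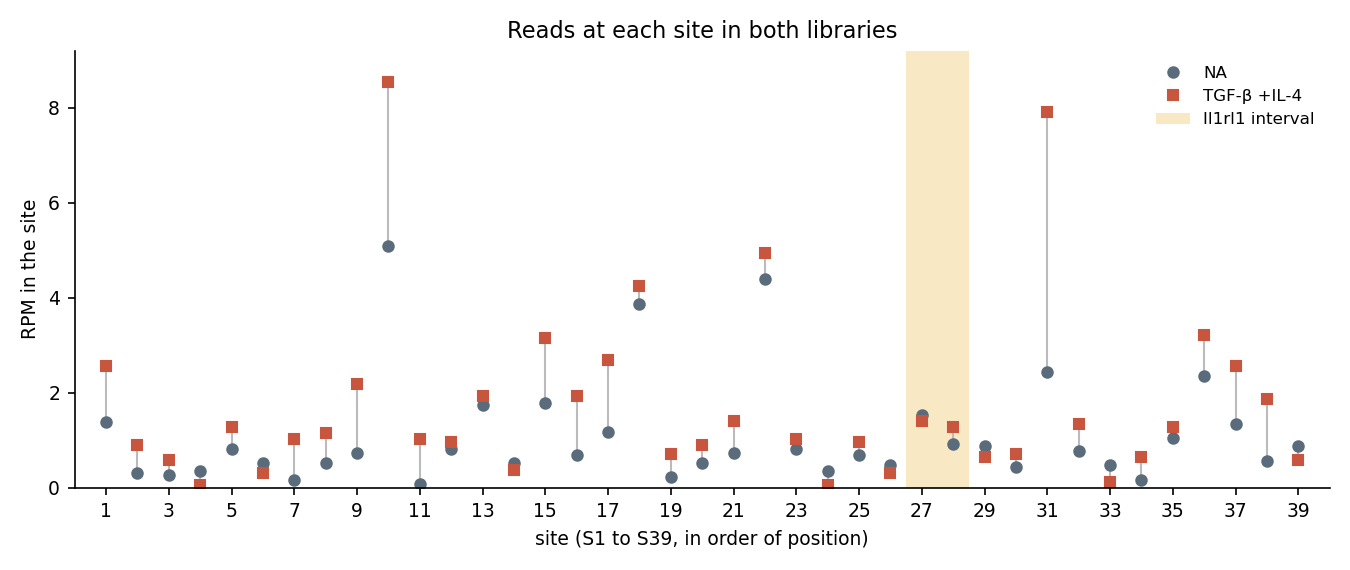
RPM (y axis) at sites S1 to S39 in order of position (x axis), with circles for the NA library, squares for TGF-β +IL-4, and shading for the Il1rl1 interval. S10 and S31 carry the most TGF-β +IL-4 reads, at 8.55 and 7.90 RPM, while S27 and S28 in the Il1rl1 interval lie between 0.914 and 1.52 RPM in both libraries.

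The Il1rl1 interval held 2 sites of moderate height, and neither differed between the libraries beyond counting error. Its density was 6.67 sites per 100 kb, against 7.22 in the zone before it and 9.17 in the zone after it. S27, at chr1:40501631-40501860, was called in both libraries and had 35 reads (1.52 RPM) in the NA library and 22 (1.41 RPM) in the TGF-β +IL-4 library, a ratio of 0.928 (0.518 to 1.63). S28, at chr1:40502921-40503130, was called in the TGF-β +IL-4 library alone and had 21 reads (0.914 RPM) and 20 (1.29 RPM), a ratio of 1.41 (0.723 to 2.72). The mean RPM of S27 was above that of 71.6% of all sites of the genome, and that of S28 above 61.9%. At S27 the enrichment of the summit over the local background was 8.71 in the NA library and 7.33 in the other, against 18.8 and 22.5 at S10. Over the whole interval there were 360 and 283 reads, 0.523 and 0.606 RPM per kb, a ratio of 1.16 (0.989 to 1.36). Its lower bound was near 1: with 10 kb added on each side the ratio was 1.12 (1.001 to 1.26), and scaled by the reads outside sites it was 1.21 (1.04 to 1.42). Of the 150 bins of 200 bp in the interval, 29.3% had no read in either library, against 18.6% of bins before and 21.5% after it, and the part of mappability in this was not tested.

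Just before the Il1rl1 interval lay a run of 4 weak sites, S23 to S26, from chr1:40475511-40475670 to chr1:40485881-40485980. They begin 14.5 kb before the interval, whose bounds are stated only roughly, so they may belong to Il1rl1 or to the stretch between it and Il1rl2. Together they held 54 reads in the NA library and 37 in the TGF-β +IL-4 library. S25, at chr1:40484231-40484370, was called in both libraries, with 16 and 15 reads and a ratio of 1.38 (0.637 to 2.99). S24 and S26 were called in the NA library alone, with 8 against 1 and 11 against 5 reads, and the intervals of their ratios, 0.184 (0.00416 to 1.38) and 0.671 (0.183 to 2.09), hold 1.

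The zone with Il18r1 and Il18rap held 11 sites, and it had the site with the clearest difference between the libraries. S31, at chr1:40532431-40533030, had 56 reads (2.44 RPM) in the NA library and 123 (7.90 RPM) in the TGF-β +IL-4 library. Its ratio was 3.24 (2.34 to 4.53), a lower bound that only S11 exceeded among the 39 sites, and S31 was the only site called in both libraries that was at least 2-fold higher. The difference was not confined to 1 point of S31. In the 6 steps of 100 bp from its start, the NA library had 3, 7, 20, 9, 5 and 12 reads and the TGF-β +IL-4 library 10, 24, 42, 25, 10 and 12. The ratio in the third step, the highest in reads, was 3.10 (1.78 to 5.57), and in the last step it was 1.48 (0.606 to 3.59). S31 belonged to a run of 4 sites, S29 to S32, within 7.22 kb. Its neighbours S29, S30 and S32 had ratios of 0.738 (0.308 to 1.65), 1.62 (0.626 to 4.26) and 1.72 (0.873 to 3.43).

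Further on in the IL-18 receptor zone the sites had ratios on either side of 1. S36, at chr1:40586231-40586460, had 2.35 and 3.21 RPM, a ratio of 1.37 (0.911 to 2.05). It had the highest enrichment over its local background of any site in the cluster, 29.5 in the NA library and 26.2 in the TGF-β +IL-4 library. S37, at chr1:40599661-40599930, had 1.35 and 2.57 RPM, a ratio of 1.90 (1.16 to 3.15). S38, 1.20 kb further, at chr1:40601131-40601320, had 13 and 29 reads, 0.566 and 1.86 RPM, a ratio of 3.29 (1.66 to 6.90). S35, at chr1:40573231-40573400, had 1.05 and 1.29 RPM, a ratio of 1.23 (0.644 to 2.32). S34, at chr1:40571271-40571380, had 4 and 10 reads, a ratio of 3.69 (1.06 to 16.1). S33, at chr1:40555181-40555300, went the other way with 11 and 2 reads, a ratio of 0.268 (0.0289 to 1.23), an interval that holds 1. S34 and S38 were called in the TGF-β +IL-4 library alone, which by itself favours ratios over 1. S33 was called in the NA library alone, which favours ratios under 1.

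**Figure D3:**
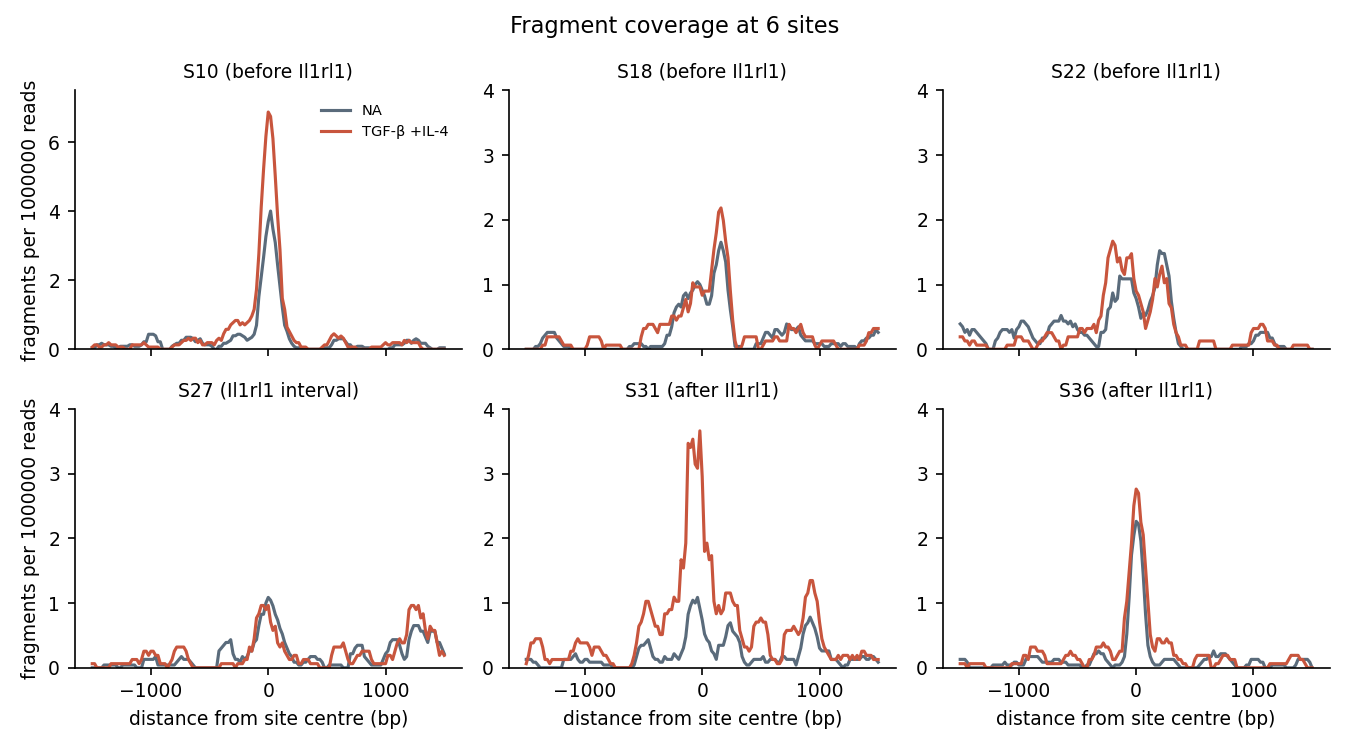
Fragment coverage per 1000000 reads of the library (y axis) by distance in bp from the centre of the site (x axis) at S10, S18, S22, S27, S31 and S36, where S10 has a taller axis than the rest. At S31 the TGF-β +IL-4 summit reached 3.66 and the other library 1.09, while at S27 in the Il1rl1 interval the summits were 0.964 and 1.09.

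By the size of the ratio, 11 of the 39 sites were higher in the TGF-β +IL-4 library and 0 were lower. To be counted, a site needed a ratio of 2 or more, or of 0.5 or less, with an exact interval clear of 1. The 11 make up 28.2% of the sites of the cluster, and over all 65915 sites of the genome the same rule gave 25.1% higher and 3.65% lower, so the share in the cluster was near that of the genome. The 11 were 8 of 26 sites in the zone with Il1r2, Il1r1 and Il1rl2, 0 of 2 in the Il1rl1 interval and 3 of 11 in the zone with Il18r1 and Il18rap. In the first zone they were S2, S7, S8, S9, S11, S16, S17 and S19, and in the last S31, S34 and S38. S8, at chr1:40316411-40316590, was nearest to the bound, with 12 and 18 reads and a ratio of 2.21 (1.01 to 5.04). S2, at chr1:40173291-40173470, had 7 and 14 reads and a ratio of 2.95 (1.11 to 8.64). S7, at chr1:40291351-40291510, had 4 and 16 reads and a ratio of 5.90 (1.90 to 24.3). S16, at chr1:40382021-40382290, had 16 and 30 reads and a ratio of 2.77 (1.46 to 5.43). S19, at chr1:40417971-40418070, had 5 and 11 reads and a ratio of 3.25 (1.04 to 11.9).

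Most of the sites past that rule were called in the TGF-β +IL-4 library alone, and a choice of that kind by itself favours ratios over 1. Of the 39 sites 17 were called in both libraries, 16 in the TGF-β +IL-4 library alone and 6 in the NA library alone, beside 39.2%, 45.2% and 15.6% of the sites of the genome. This split varies with the thinning. In the draw used, 23 sites were called in the NA library, and in a second random draw 27, of which 20 were shared. Peaks called on all reads of that deeper library gave 36, of which 22 were shared, beside 33 called in the TGF-β +IL-4 library. Of the 16 sites called in the TGF-β +IL-4 library alone in the draw used, 10 were higher, against 44.4% of such sites in the genome. Of the 17 shared sites only S31 was higher, against 12.8% of shared sites in the genome. Among the shared sites 15 of 17 had a ratio over 1, the lowest being S39 at 0.664 (0.266 to 1.53) and the median 1.37, beside a median of 1.34 over the shared sites of the genome. S39, at chr1:40636701-40636860, is the last site of the cluster and stands 35.4 kb from S38, towards Slc9a4. With the libraries scaled to a median ratio of 1 at the shared sites, 6 sites were higher (S7, S9, S11, S16, S31 and S38) and S33 was lower, beside 11.5% higher and 8.34% lower in the genome. With the NA library thinned to the depth of the other before counting, 10 sites were higher and 3 lower: S2, S8 and S34 no longer passed, while S10 and S21 passed as higher and S4, S24 and S33 as lower. The thinned reads were the same random draw on which the NA peaks had been called. S4, S24 and S33, called in the NA library alone, were thus recounted on the reads that selected them. That by itself favours ratios under 1. S10 passed with a ratio of 2.15 in that draw, against 1.68 with all reads.

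**Figure D4:**
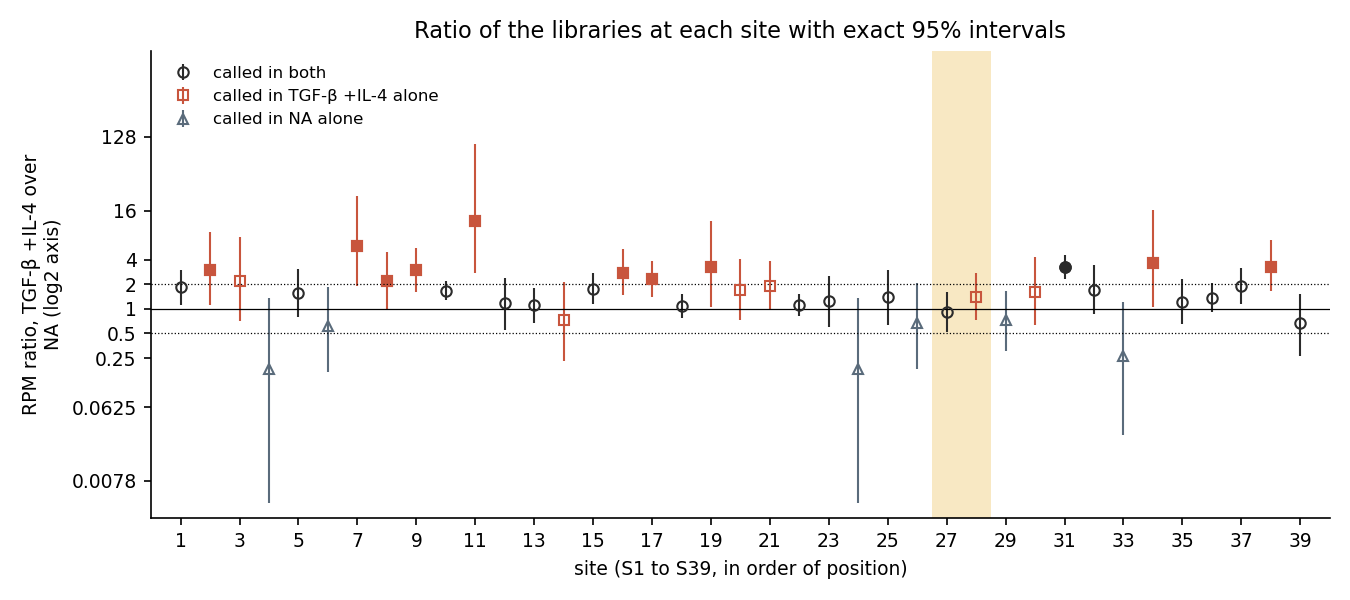
RPM ratio of TGF-β +IL-4 over NA (y axis, log2 scale) at S1 to S39 (x axis), with bars for the exact 95% interval, filled symbols for sites past the size rule, dotted lines at 2 and 0.5 and shading for the Il1rl1 interval. The 11 filled symbols lie outside the Il1rl1 interval, which holds just 2 sites, and S31 has the narrowest bar among them.

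Set side by side, no larger difference between the libraries was detectable in the Il1rl1 interval than in the IL-18 receptor zone. The interval had 0.523 and 0.606 RPM per kb in the NA and TGF-β +IL-4 libraries. The zone with Il18r1 and Il18rap had 0.533 and 0.685, with a ratio of 1.29 (1.19 to 1.39) on 1468 and 1279 reads. The ratio of the 2 ratios, Il1rl1 interval over IL-18 receptor zone, does not depend on the scaling of the libraries and was 0.902 (0.756 to 1.08) with all reads, an interval that holds 1. The bounds of the Il1rl1 interval are rough, and with 10 kb added on each side that value was 0.848 (0.737 to 0.976), which leaves out 1. With reads in sites alone the interval had 56 and 42 reads, a ratio of 1.11 (0.724 to 1.68). The IL-18 receptor zone had 261 and 325, a ratio of 1.84 (1.56 to 2.17), and the ratio of ratios was 0.603 (0.381 to 0.948). That value rests on S31: without it the sites of the IL-18 receptor zone had 205 and 202 reads, a ratio of 1.45 (1.19 to 1.77), and the ratio of ratios was 0.762 (0.475 to 1.22). With all reads, leaving out S31 gave that zone a ratio of 1.21 (1.12 to 1.31). The ratio of ratios with all reads was then 0.960 (0.803 to 1.15), and no value without S31 is given for the wider interval. Outside sites the ratio of ratios was 1.003 (0.826 to 1.22).

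The zone with Il1r2, Il1r1 and Il1rl2 had a lower ratio than the IL-18 receptor zone both outside sites and in sites, though in sites the interval holds 1. It had 5139 and 3728 reads, 0.622 and 0.665 RPM per kb, a ratio of 1.07 (1.03 to 1.12). In its sites the ratio was 1.56 (1.40 to 1.73) and outside them 0.998 (0.953 to 1.05), whereas outside the sites of the IL-18 receptor zone it was 1.17 (1.07 to 1.27). Over the whole genome the ratio outside sites was 0.955. The ratio of ratios between these zones outside sites was 0.856 (0.776 to 0.944), and in sites 0.846 (0.693 to 1.03). In stretches of 10 kb, the one that holds S31 and S32 had 187 and 282 reads, a ratio of 2.23 (1.84 to 2.69), the highest of the 51 stretches that tile the cluster. The part of the reads beside S31 in the ratio outside sites was not tested.

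**Figure D5:**
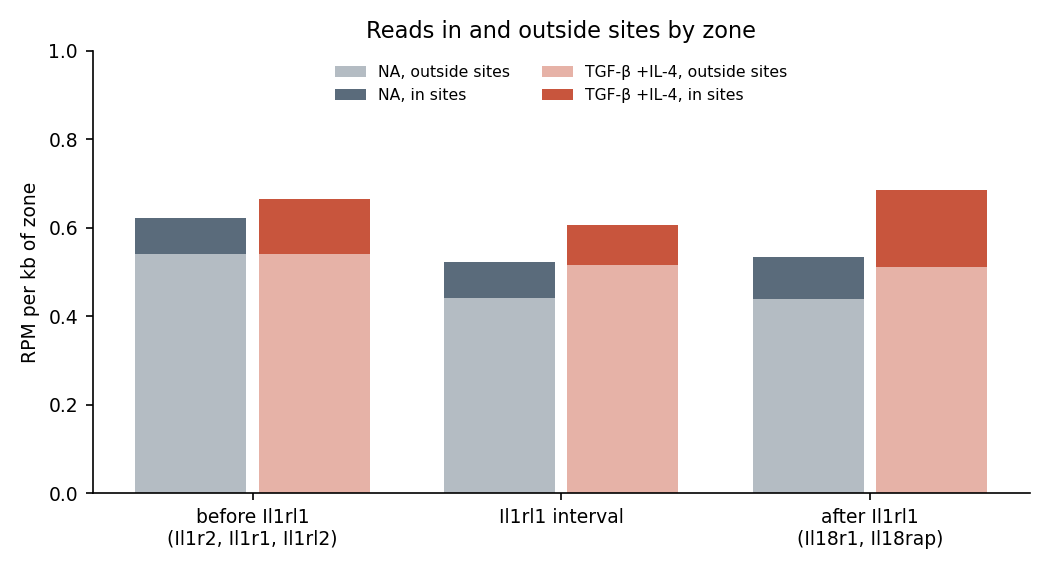
RPM per kb of each zone (y axis) in the NA library and the TGF-β +IL-4 library, with the dark part of a bar for reads in sites and the light part for reads outside them. The bars run from 0.523 for the Il1rl1 interval with NA to 0.685 for the IL-18 receptor zone with TGF-β +IL-4.

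Counted in bins of 200 bp, at a level of at least 0.5 RPM, the cluster had 70 bins in the NA library and 107 in the TGF-β +IL-4 library. Among bins with a read these were 3.43% and 5.24%, beside 1.33% and 2.10% over the genome. The zone with Il1r2, Il1r1 and Il1rl2 had 48 and 70 such bins, 3.28% and 4.78% of its bins with a read. The zone with Il18r1 and Il18rap had 16 and 31, or 3.4% and 6.58%. The Il1rl1 interval had 6 in each library, or 5.66% in each, and 4 of them were the same. The highest bin of the interval reached 1.26 and 1.16 RPM, at S27. In the IL-18 receptor zone the highest bins lay at different sites, with 2.22 RPM at S36 in the NA library and 4.76 RPM at S31 in the TGF-β +IL-4 library. The level stands for 12 reads in the NA library, which is the deeper one, and 8 in the TGF-β +IL-4 library. With the NA library thinned to the depth of the other, its bins at that level numbered 87.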

How the data were processed

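GATA3-bound DNA of 2 CD4+ T cell samples was sequenced, 1 library per group as the labels' treatment field gives it. Per the labels' protocols chromatin was sonicated to between 200 and 300 bp, amplified for 17 cycles, and fragments near 220 bp were cut from a gel. CASAVA 1.0, Bowtie2 and mm9 are named in the submitters' processing notes, without role or settings. The deposited files list 1 aligned read of 25 bases per line with a mapping quality, a score that ran from 11 to 42. Duplicates had been removed before deposit: 0 reads shared a position and strand, which compresses the strongest sites.

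Mitochondrial reads were left out, and each 5' end was shifted 63 bp inwards to the fragment centre. Reads were extended to 125 and 130 bp, the distances of highest agreement between strands. Coverage in steps of 10 bp was tested against the Poisson rate over 2369250000 covered bp or that in 10 kb, whichever was larger, at a Benjamini-Hochberg q under 0.01. The deeper library was thinned to 15561681 reads for this step, which gave 36533 and 55675 peaks. The main counts used all reads, and the alternative with thinned counts used the same draw. Peaks were merged over gaps of 100 bp, kept from 100 bp and with 20% of reads per strand, and joined across libraries at 1 bp of overlap. Ratios carry exact Clopper-Pearson intervals at 95%, shares Wilson intervals, and ratios of ratios the exact conditional interval of the odds ratio. PCR reads are not independent molecules, and these intervals cover counting error only. The caller and the size rule were tested on simulated data with an evenly spread background, isolated sites and Poisson counts. That setting lacks the uneven background, mappability and close sites of the real data, so it does not test the calls under them. Alternatives were the shift, mapping quality, thinning, scaling, bounds of the Il1rl1 interval, q, local rate, overlap, fold, bins and level. Sites named singly were the 5 strongest of each zone, every site past the size rule and every site in the Il1rl1 interval, and others were named after their values were seen. Genes, lists and words searched were chosen with earlier results of these data known. Other IL-1 family genes had been listed on condition of an mm9 annotation and were not analysed here. Python 3.11.15, numpy 2.4.6 and scipy 1.17.1 were used.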

Additional observations from a re-analysis of the deposited data

How the results depend on the processing

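Scaling moved every ratio alike. Scaled by reads outside sites, the ratio of the cluster was 1.17 and that of the zone before the Il1rl1 interval 1.12. Scaled to a median ratio of 1 at shared sites, the ratios of total reads turned below 1: 0.838 for the cluster, 0.80 for the zone before the interval, 0.867 for the interval and 0.961 for the zone after it, with 6 sites higher, 1 lower, and S10 at 1.25. With a q under 1e-05 there were 20 sites, 10 called in the NA library, 18 in the TGF-β +IL-4 library and 8 in both, and 5 were higher. With peaks called on all reads, 36 sites were called in the NA library and 22 in both, and with a second random thinning 27 and 20. The NA library was also thinned for counting, on the draw used to call its peaks. There 3 sites (S4, S24 and S33) were lower, S2, S8 and S34 fell out of the higher ones, and S10 and S21 came in. A level of 1 RPM left 14 and 36 bins. With reads in sites alone the ratio of ratios of the Il1rl1 interval over the zone after it was 0.603, and leaving out S31, an alternative chosen after seeing the data, gave 0.762. With all reads, leaving out S31 gave 0.960 (0.803 to 1.15). With the Il1rl1 interval wider by 10 kb on each side, its ratio was 1.12 (1.001 to 1.26) and the ratio of ratios with all reads 0.848 (0.737 to 0.976), both with intervals that leave out 1, unlike the values in the report. Narrowing it, mapping quality, the shift, the local rate and the overlap kept each ratio of a zone on its side of 1 and each count within 1.5 times. No paired analysis was possible because each group is 1 library.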
